A study of Mus musculus with 6 samples.

Results

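The genes that encode the subunits of the mitochondrial respiratory chain and of ATP synthase were compared between liver tumours that carried or lacked an AEG-1 transgene (AEG-1, astrocyte elevated gene-1, is encoded by Mtdh). Members were chosen by name alone, as genes whose platform symbol belongs to the Nduf, Sdh, Uqcr, Cox or Atp5 subunit series. This gave 76 of the 12393 genes measured, with 33 in complex I, 4 in complex II, 8 in complex III, 14 in complex IV and 17 in complex V, the ATP synthase. These genes had 145 of the 22626 probe sets tested, and the probe set with the highest mean over the 6 arrays stood for each gene. The names also take in Ndufa4, now assigned to complex IV, and Cox7a2l, a factor that joins complexes into supercomplexes.

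Each of 6 male mice contributed 1 liver tumour to 1 Affymetrix array, 3 wild-type and 3 Alb/AEG-1 mice. All had received the liver carcinogen N-nitrosodiethylamine once, at 14 days of age and 10 µg per g of weight, and were 28 weeks old when tumours were taken. The Alb/AEG-1 mice carried a microinjected 5.3-kb DNA fragment. The labels name it after albumin, a hepatocyte gene, and do not state the number of founder lines or the species of the AEG-1 sequence. They record CD-1 as background strain in both groups and B6CBAF1/J matings as the source of the injected embryos. Normal liver was not part of the comparison, so it contrasts tumours of 2 genotypes and not tumour with liver. The animal numbers in the titles fall into a low and a high range, and the labels do not call these batches. Wild-type replicate 1 and the transgenic replicates 1 and 2 have low numbers, and the other three animals have high numbers. Whether the ranges mark litters or array runs was not tested.

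Complex I takes electrons from NADH and complex II takes them from succinate. Both pass them to ubiquinone, complex III passes them on to cytochrome c, and complex IV gives them to oxygen. The proton gradient built on the way drives ATP synthase. Hepatocytes are rich in mitochondria and use the chain to support urea synthesis, gluconeogenesis and fatty acid oxidation. Most subunits are encoded in the nucleus and made in the cytosol, while a few core subunits of complexes I, III, IV and V are encoded by mitochondrial DNA.

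The levels of these genes were close to the same in both genotypes. By limma over all 22626 probe sets, 0 of the 76 members passed an adjusted p of 0.05, and the smallest adjusted p of a member was 0.611. Of all 12393 genes on their brightest probe sets 0 passed as well, and of all probe sets 0.00442%, so this count does not set the members apart. At an unadjusted p below 0.05 there were 2 members lower in Alb/AEG-1 tumours and 0 higher. That is 2.63% of members, where 8.33% of all genes were past this threshold in either direction (4.47% lower and 3.86% higher). Differences ran from -0.29 to 0.18 log2, so that 0 members differed at least 1.5-fold, a size that 1.48% of all genes reached.

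The data also bounded the difference of most members. The 95% interval of the difference, taken for each gene on its own, lay inside 1.5-fold in either direction for 74 of the 76 members. The same was true of 86.7% of all genes, and of 83.9% of the genes with a mean level of at least 10 log2. Of the members, 65 had such a mean, and 65 of these 65 had an interval inside 1.5-fold. Among all 951 genes this bright, 4.84% had an unadjusted p below 0.05 (2.42% lower), 1.89% differed at least 1.5-fold, 50.3% were negative and 5.99% had separated groups with Alb/AEG-1 lower. Of the 65 members, 2 had such a p, 44 were negative and 12 were separated in that direction. The 2 members outside it were Cox7c and Cox7a1, whose probe sets were dim. Their intervals ran from -0.63 to 0.05 and from -0.62 to 0.46 log2.

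**Figure D1:**
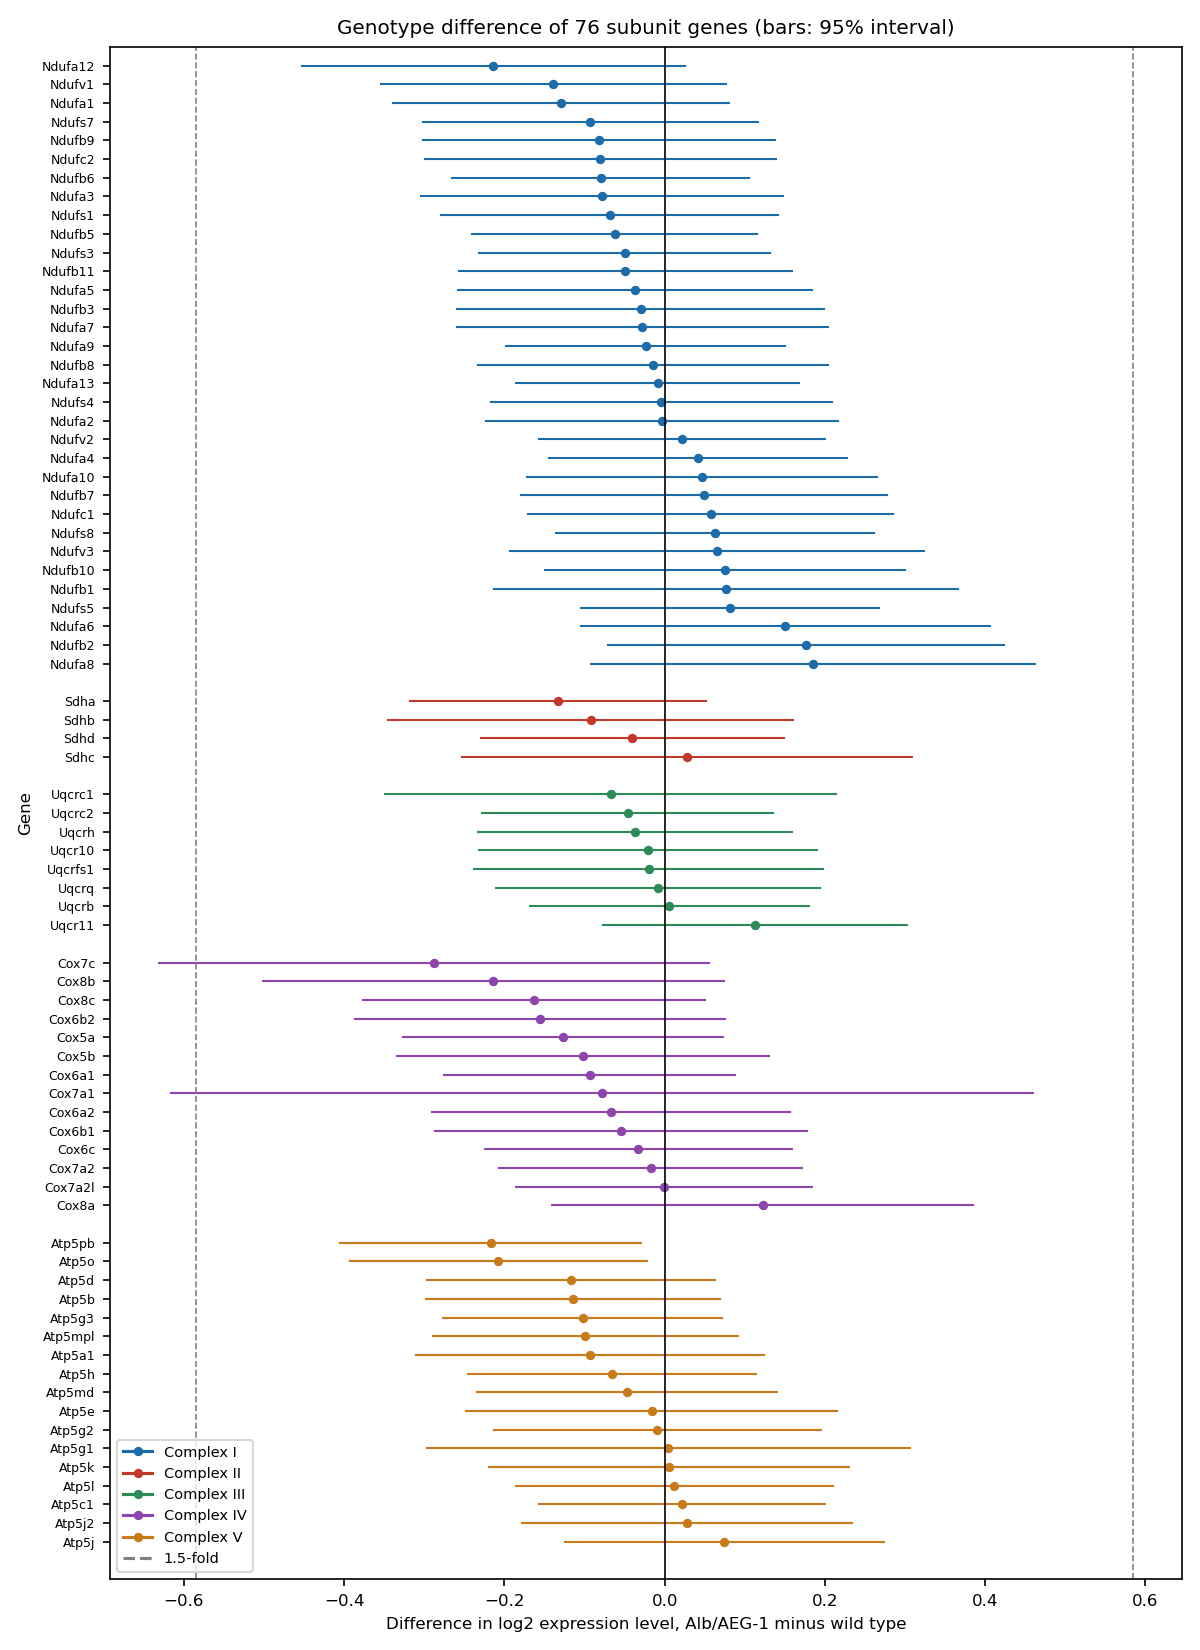
Difference in log2 expression level, Alb/AEG-1 minus wild type, for each of the 76 genes (points) with its 95% interval from limma (bars), grouped by complex; dashed lines mark 1.5-fold. Only the intervals of Atp5pb and Atp5o leave out 0, and those of Cox7c and Cox7a1 cross a dashed line.

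The small differences were more often negative than positive. Of the 76 members, 53 were lower in Alb/AEG-1 tumours by their mean (69.7%, against 52.2% of all genes, of which 47.8% were positive), with a median of -0.03 log2 over the members and -0.01 over all genes. The 3 Alb/AEG-1 arrays lay below all 3 wild-type arrays in 13 members (17.1%), where 8.31% of all genes did so, and above them in 1 member, where 6.77% of all genes did so. The lean was smaller without either of 2 arrays. Wild-type replicate 1 was the highest of the 6 arrays in 30 of the 76 members, against 12.3% of all genes, and without it 40 members were negative and 36 positive. Alb/AEG-1 replicate 2 was the lowest array in 26 members (34.2%, against 15.5% of all genes), and without it 43 were negative and 33 positive. The median over members was -0.09 within the low animal numbers and 0.003 within the high ones. After each array was centred on its median, 47 members were negative and 29 positive, with a median of -0.02.

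**Figure D2:**
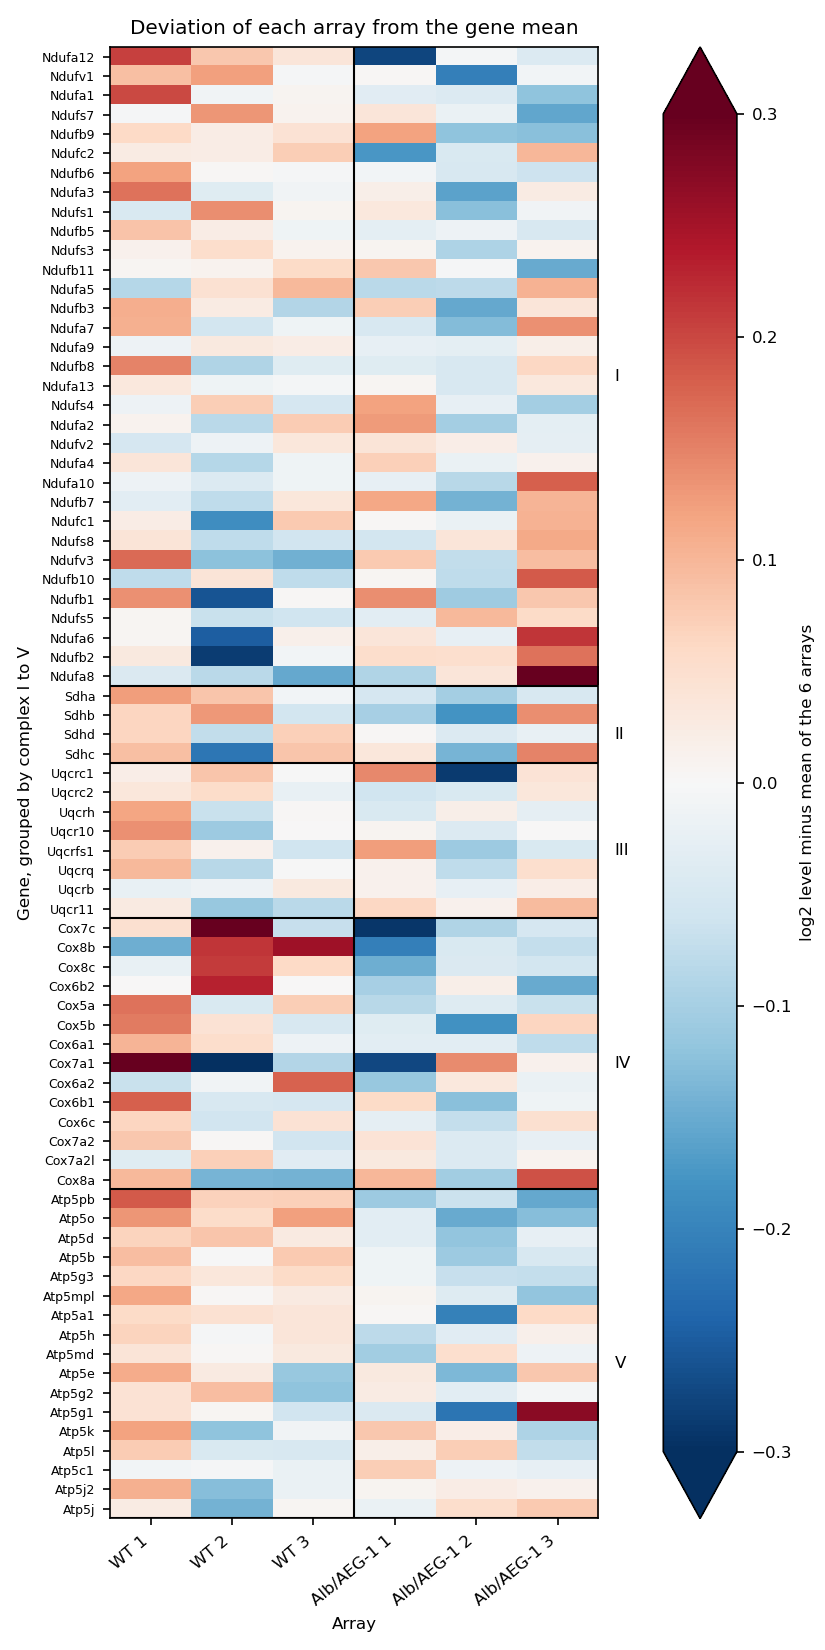
Log2 level of each of the 76 genes on each array minus its mean over the 6 arrays (colour, cut at 0.3 either way), with genes in rows by complex and within a complex from the most negative to the most positive genotype difference. Wild-type replicate 1 is the highest array in 30 rows and Alb/AEG-1 replicate 2 the lowest in 26.

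In complex I, whose core subunits carry the flavin, the iron-sulfur clusters and the proton path, the differences were spread around 0. Of 33 members, 20 were negative and 13 positive, with a median of -0.01 log2, and 0 had an unadjusted limma p below 0.05. Ndufa12, an accessory subunit of the arm in the matrix, had the smallest p. It was at 11.31, 11.19 and 11.14 on the wild-type arrays and at 10.83, 11.10 and 11.07 on the Alb/AEG-1 arrays, which do not overlap. The difference was -0.21 ± 0.10 log2 (SE, limma, adjusted p = 0.63), and the 4 Ndufa12 probe sets differed by between -0.27 and -0.10. With cross-binding probe sets left out, only a dim one remained, at -0.11. The probe set that stands for Ndufa12 may also bind related transcripts.

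Ndufb2, an accessory subunit of the membrane arm, was the 1 member whose Alb/AEG-1 arrays all lay above the wild-type arrays. Its values were 10.77, 10.46 and 10.73 on the wild-type and 10.79, 10.79 and 10.91 on the Alb/AEG-1 arrays. The separation was narrow, with wild-type replicate 2 well below the other five arrays, and the second Ndufb2 probe set differed by 0.01 and overlapped. Ndufa8, an accessory subunit on the side of the intermembrane space, was at 10.56, 10.53 and 10.45 and at 10.52, 10.65 and 10.94. Its difference of 0.18 ± 0.12, the highest of the members, came with 1 high array, Alb/AEG-1 replicate 3, and was 0.02 within the low animal numbers and 0.45 within the high ones.

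Ndufv1, the core subunit that binds NADH and FMN, differed by -0.14 ± 0.09 log2 with overlapping groups. It was at 11.18, 11.22 and 11.09 on the wild-type and 11.10, 10.89 and 11.09 on the Alb/AEG-1 arrays. Ndufa2, another accessory subunit of the matrix arm, had the largest p in the complex, with a difference of -0.004 ± 0.09. Ndufa4 was at 12.39, 12.27 and 12.34 and at 12.43, 12.34 and 12.37, a difference of 0.04 with a 95% interval from -0.14 to 0.23. Ndufa1, Ndufb6, Ndufb5 and Ndufs3 were further members with separated groups, all lower on the Alb/AEG-1 arrays, by 0.13 log2 or less. In Ndufs3 the groups all but touched, at 11.1615 on wild-type replicate 3 and 11.161 on Alb/AEG-1 replicate 3. The second Ndufb6 and Ndufb5 probe sets differed by 0.04 and -0.03 with overlapping groups.

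Complex II, succinate dehydrogenase, is also an enzyme of the tricarboxylic acid cycle and is encoded wholly in the nucleus. All 4 of its subunits were measured, and 3 were negative. Sdha, the flavoprotein that oxidizes succinate, was at 11.65, 11.61 and 11.51 on the wild-type and 11.47, 11.42 and 11.47 on the Alb/AEG-1 arrays. The groups were separated by a narrow gap, with a difference of -0.13 ± 0.08 log2 (adjusted p = 0.661).

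Sdhb, the iron-sulfur subunit, was at 12.02, 12.09 and 11.90 and at 11.86, 11.78 and 12.10. Alb/AEG-1 replicate 3 was the highest of all and the other two transgenic arrays the lowest, so that animals of low number gave a difference of -0.20 and those of high number 0.10. The membrane anchors Sdhc and Sdhd differed by 0.03 ± 0.12 and -0.04 ± 0.08, with overlapping groups.

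Complex III, which passes electrons from ubiquinol to cytochrome c, had differences from -0.07 to 0.11 log2 over its 8 members, with a median of -0.02. On the brightest probe sets the groups overlapped in 8 of 8, where 15.1% of all genes had separated groups. Uqcr11, a small accessory subunit, was at 11.93, 11.79 and 11.82 on the wild-type arrays and at 11.92 or above on every transgenic array, and differed by 0.11 ± 0.08. Only wild-type replicate 1 reached into the transgenic range. The core proteins Uqcrc1 and Uqcrc2 differed by -0.07 ± 0.12 and -0.05 ± 0.08, and the Rieske iron-sulfur protein Uqcrfs1 by -0.02 ± 0.09. In Uqcrc1, Alb/AEG-1 replicate 2 stood low at 10.33 against 10.62 to 10.76 on the other five arrays, and the difference was 0.06 without it. Uqcrh, the acidic hinge protein near cytochrome c, differed by -0.04 ± 0.08. Uqcrb, a small subunit near the ubiquinone site, lay between 13.42 and 13.48 on the 6 arrays, with a difference of 0.006 and a 95% interval from -0.17 to 0.18. A dimmer Uqcrb probe set, with a mean of 11.24, differed by -0.11 ± 0.08 with separated groups.

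Complex IV, cytochrome c oxidase, had 13 of its 14 members negative, where 52.2% of all genes were, and a median of -0.09 log2. The 13 include the supercomplex factor Cox7a2l, at -0.001, and Cox7c on a dim probe set. Complex IV subunits that the naming put elsewhere or left out went both ways. Ndufa4 differed by 0.04, Cox4i1 by 0.05 ± 0.10 and the dim Cox4i2 by -0.17 ± 0.11, all with overlapping groups. None of the 14 had an unadjusted limma p below 0.05. The probe sets of 5 of the 14 were dimmer than the median probe set. The median was -0.05 with these left out and -0.06 without wild-type replicate 1. Among the broadly expressed subunits, Cox5a differed by -0.13 ± 0.09, Cox5b by -0.10 ± 0.10 and Cox6c by -0.03 ± 0.08. Cox8a was the 1 positive member, at 11.08, 10.84 and 10.84 on the wild-type and 11.08, 10.88 and 11.17 on the Alb/AEG-1 arrays, and its groups overlapped.

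Several complex IV subunits exist as a form used in liver and most tissues and a form of muscle or testis. The liver form Cox6a1 was at 13.45, 13.41 and 13.34 on the wild-type and 13.32, 13.32 and 13.28 on the Alb/AEG-1 arrays. These groups were separated by a gap smaller than the spread within wild type, with a difference of -0.09 ± 0.08 (adjusted p = 0.732). The muscle form Cox6a2 differed by -0.07 ± 0.10, with a level of 5.89 at the highest array. Likewise Cox7a2 lay between 12.45 and 12.58 with a difference of -0.02 ± 0.08, and its muscle counterpart Cox7a1 between 4.94 and 5.87 with a difference of -0.08 ± 0.23. Wild-type replicate 1 was the high array of Cox7a1, and without it the difference was 0.18.

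Cox6b1 differed by -0.05 ± 0.10 and the testis form Cox6b2 by -0.16 ± 0.10. Cox8b, the muscle counterpart of Cox8a, was at 5.04, 5.40 and 5.44 on the wild-type and 4.98, 5.14 and 5.12 on the Alb/AEG-1 arrays. Its difference of -0.21 ± 0.12 was -0.34 without wild-type replicate 1 (limma, unadjusted p = 0.0115, adjusted p = 0.358). Cox8c, known from testis, was at 7.48, 7.71 and 7.56 and at 7.36, 7.46 and 7.45, separated by a narrow gap. Muscle markers were low too, with 4 of the 5 measured below 5 log2 and a mean level between 4.11 and 4.30 on the wild-type and between 4.09 and 4.22 on the Alb/AEG-1 arrays.

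Cox7c had the lowest difference of all members, -0.29 ± 0.15, on a probe set with a mean of 4.62 that may bind related transcripts. It was at 4.67, 5.07 and 4.55 and at 4.33, 4.53 and 4.57, with 1 high array, wild-type replicate 2. The other Cox7c probe set, with a mean of 3.28, differed by 0.16 in the other direction. Cox7c encodes a subunit present in every cell type that respires, so a level this low was not read as the level of the transcript. Cox7a2l differed by -0.001 ± 0.08.

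ATP synthase held both members with an unadjusted p below 0.05. It has a catalytic head, a rotating ring and central stalk, and a peripheral stalk that holds the head still. Atp5pb, subunit b of the peripheral stalk, was at 12.54, 12.42 and 12.43 on the wild-type and 12.24, 12.29 and 12.20 on the Alb/AEG-1 arrays. Every Alb/AEG-1 array lay below every wild-type array, with means of 12.46 ± 0.07 and 12.25 ± 0.04 (SD, n = 3 each). The difference was -0.22 ± 0.08 log2, 1.16-fold lower (SE; limma, unadjusted p = 0.0284, adjusted p = 0.611). Within the low animal numbers it was -0.27, and within the high ones -0.22. The probe set may bind related transcripts, and the second Atp5pb probe set, which stands for the gene when such probe sets are left out, differed by -0.18 ± 0.10 with overlapping groups (limma, unadjusted p = 0.122).

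Atp5o encodes the oligomycin sensitivity-conferring protein, which joins the peripheral stalk to the head. It was at 11.52, 11.44 and 11.51 on the wild-type and 11.35, 11.23 and 11.26 on the Alb/AEG-1 arrays, again without overlap. The difference was -0.21 ± 0.08 log2 (SE, limma, unadjusted p = 0.033, adjusted p = 0.611), -0.22 within both ranges of animal numbers. Its second probe set differed by -0.23 ± 0.09 and was separated as well. Leaving out single arrays gave differences between -0.24 and -0.18 for either gene. The unadjusted p then rose above 0.05 for Atp5pb without wild-type replicate 1 or Alb/AEG-1 replicate 1 or 3, and for Atp5o without wild-type replicate 1 or 3 or Alb/AEG-1 replicate 2 or 3.

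The other peripheral stalk subunits did not share that size. Atp5h, subunit d, differed by -0.07 ± 0.08 and Atp5j, coupling factor 6, by 0.07 ± 0.09, both with overlapping groups. The second Atp5h probe set differed by -0.04 ± 0.07, with groups separated by a narrow gap. The differences between subunits of the stalk were not tested.

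In the head, the catalytic beta subunit Atp5b was at 12.74, 12.64 and 12.72 on the wild-type and 12.63, 12.54 and 12.60 on the Alb/AEG-1 arrays. These groups did not overlap, with a difference of -0.11 ± 0.08 (adjusted p = 0.691). The alpha subunit Atp5a1 differed by -0.09 ± 0.09. A dimmer Atp5a1 probe set, with a mean of 7.77, differed by -0.26 ± 0.10 with separated groups (limma, unadjusted p = 0.0298), while the third differed by -0.02. In the central stalk, Atp5d, the delta subunit, differed by -0.12 ± 0.08 with separated groups on its brighter probe set. The other Atp5d probe set differed by 0.03 ± 0.10 with overlapping groups, and the mean of both by -0.04. Atp5c1, the gamma subunit, differed by 0.02 ± 0.08.

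The c subunit of the rotating ring is made from 3 genes that encode the same mature protein. Atp5g3 was at 13.19, 13.17 and 13.19 on the wild-type and 13.12, 13.06 and 13.06 on the Alb/AEG-1 arrays, a separated difference of -0.10 ± 0.07. Atp5g1 was at 11.37, 11.34 and 11.27 and at 11.29, 11.11 and 11.60. Its transgenic arrays spanned the wild-type values on both sides, with a difference of 0.005 ± 0.13, and Atp5g2 differed by -0.01 ± 0.09. Over all 17 members of complex V, 11 were negative, 5 were separated downwards and 0 upwards, and the median was -0.05. Over all genes, 52.2% were negative, 8.31% were separated downwards and 6.77% upwards. Among genes with a mean of at least 10 log2, 5.99% were separated downwards.

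**Figure D3:**
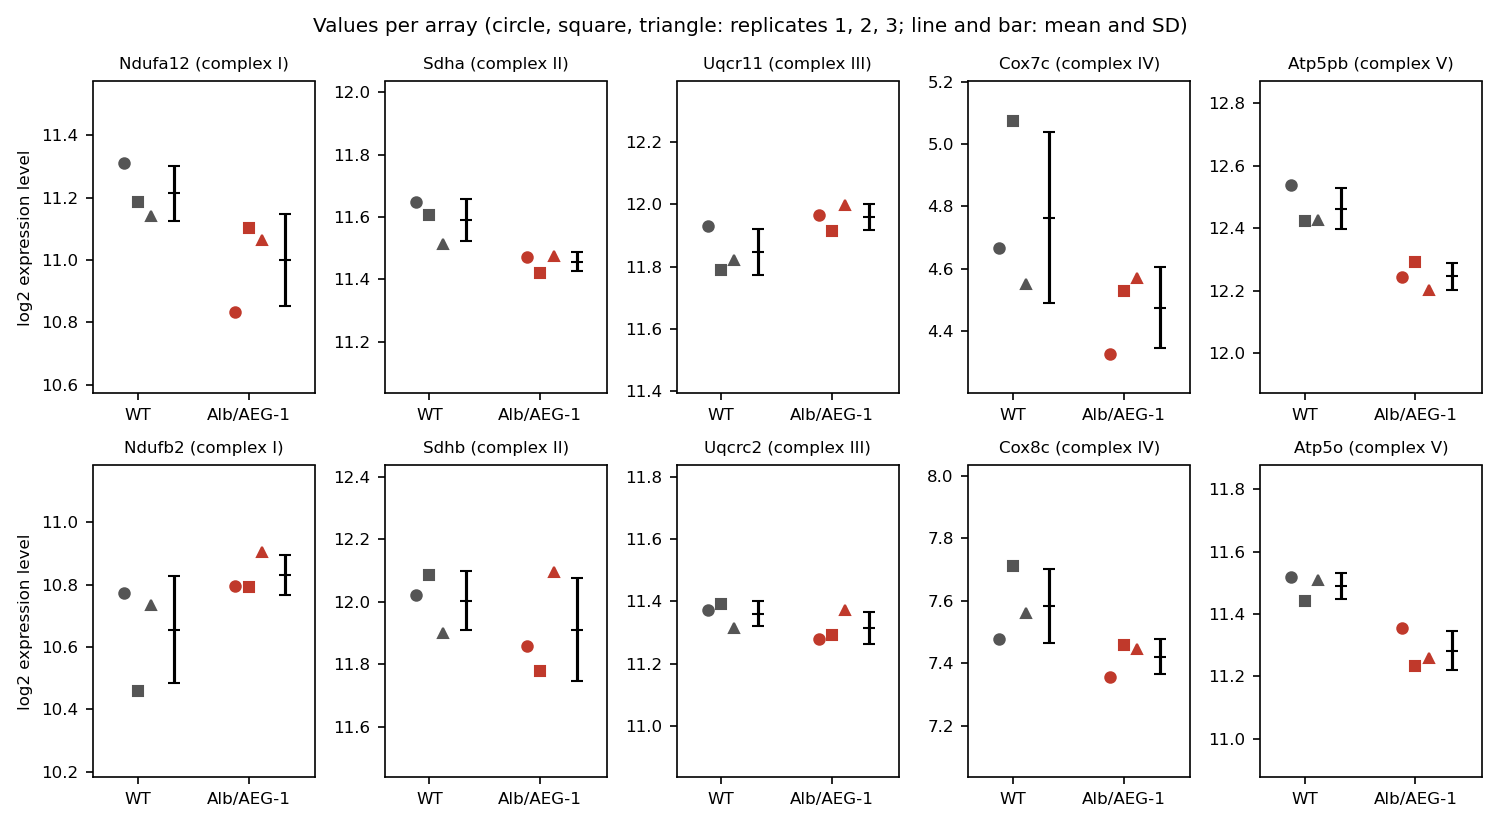
Log2 expression level on each array for the 2 genes of each complex with the smallest limma p, with mean and SD beside the points; every panel spans 1 log2 unit. The groups are apart in Atp5pb, Atp5o, Sdha, Ndufa12, Ndufb2 and Cox8c and overlap in the other panels.

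Set against each gene's own mean over the 6 arrays, 1 array of either genotype stood to the same side in all complexes. On wild-type replicate 1 the median deviation was between 0.02 and 0.08 log2 in the 5 complexes, and on Alb/AEG-1 replicate 2 between -0.12 and -0.04. Alb/AEG-1 replicate 3 was above 0 in complexes I, II and III and below 0 in complexes IV and V. Over all genes the medians lay between -0.01 and 0.01. The spread within a group was small, with a median SD of 0.07 in either genotype for the members against 0.12 for all genes. The members were also brighter, with 65 of 76 at a mean of at least 10 log2 against 951 of 12393 genes. The spread was not compared at equal level.

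**Figure D4:**
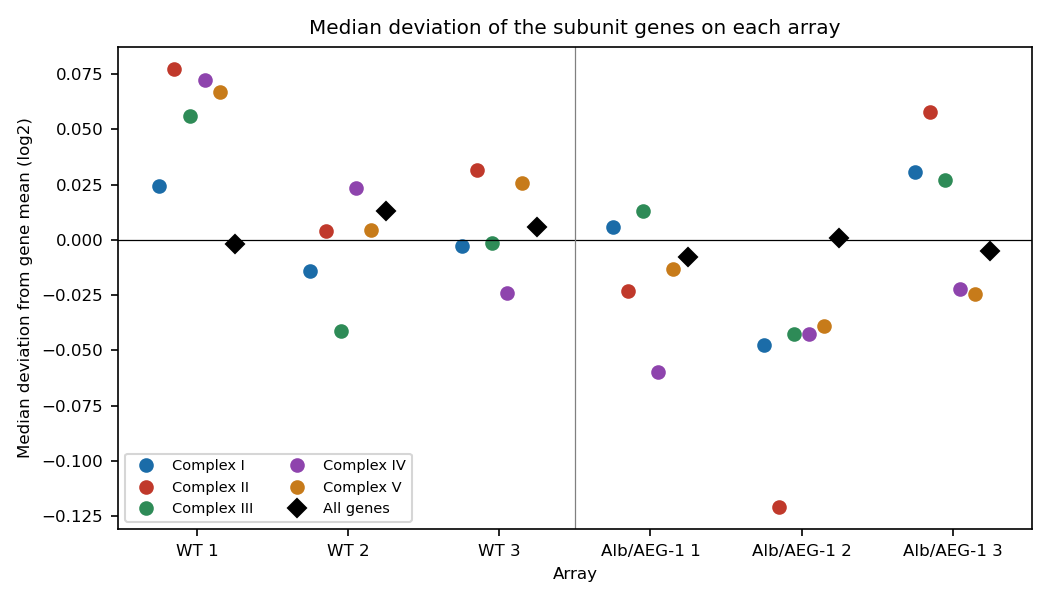
Median, over the genes of each complex, of the deviation of an array from the gene's mean over 6 arrays (log2); black diamonds give all 12393 genes. Points of all complexes are above 0 on wild-type replicate 1 and below 0 on Alb/AEG-1 replicate 2.

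Among the 43 members with more than 1 probe set, all probe sets of a gene differed in 1 direction in 29 and in both directions in 14. The widest span after Cox7c was in Ndufs4, an accessory subunit whose 3 probe sets differed by between -0.17 and 0.24. Its brightest probe set, with a mean of 10.0, differed by -0.004. The ends of the span came from dimmer ones, -0.17 ± 0.11 at a mean of 7.37 and 0.24 ± 0.23 at 5.89. Of the 145 probe sets, 4 had an unadjusted p below 0.05, all lower, and 8.06% of all probe sets were past that threshold in either direction. These were 1 of Atp5pb, both of Atp5o and the dim one of Atp5a1.

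A feature that the naming did not use is the DNA before the start sites. Nuclear respiratory factor 1 (NRF1) and the ETS factor GABPA are known regulators of respiratory chain genes. Promoters from RefSeq (GRCm38.p6) were matched by gene ID for 64 of the 76 members, with 69 start sites, and the 250 bases before each start were searched on both strands. The NRF1 motif, written as GCGCA and GCGC with any 1 base between them, was in 11 of the 69 (15.9%), against 3.74% of all 32851 promoters and 5.18% of those of protein-coding genes. The ETS motif CCGGAAG was in 12 (17.4%), against 6.91% and 8.98%. AAGGTCA, the half-site of the receptor ERR alpha, was in 4 (5.8%), against 4.08% and 3.59%. AAGATGGC, the core of the YY1 motif, was in 1 (1.45%), against 1.56% and 1.5%. No motif contains another, and a match is a description of the letters only.

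Windows of 30 bases around an NRF1 match are shown for 5 named members, from complexes I, II, IV and V, to let the match be read beside the values above. Capitals mark the match on either strand.
Ndufa8 (GRCm38.p6, chr2:36049349-36049378, minus strand): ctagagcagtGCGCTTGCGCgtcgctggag
Sdha (GRCm38.p6, chr13:74350319-74350348, minus strand): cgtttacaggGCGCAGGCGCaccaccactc
Sdhd (GRCm38.p6, chr9:50603909-50603938, minus strand): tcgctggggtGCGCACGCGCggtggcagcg
Cox6a1 (GRCm38.p6, chr5:115349101-115349130, minus strand): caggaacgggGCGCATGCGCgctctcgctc
Atp5g2 (GRCm38.p6, chr15:102671070-102671099, minus strand): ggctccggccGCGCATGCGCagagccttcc
The match shown ended 20 bases before the start of Ndufa8, 88 before that of Sdha and 32 before that of Atp5g2. Sdha and Cox6a1 had 3 matches each with both strands counted, and the one farthest from the start is shown. The 2 matches counted in Atp5g2 are the same bases read on either strand, and so are 2 of the 3 counted in Cox6a1, at the match shown. The 10 members with the NRF1 motif had differences from -0.13 (Sdha) to 0.18 (Ndufa8), with 6 negative and a median of -0.02. The 54 members with a promoter and no such match had 37 negative and a median of -0.03.

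Other genes of oxidative metabolism gave few differences as well. Of those listed 0 passed an adjusted p of 0.05, but so did 0 of all 12393 genes. The counts below at an unadjusted limma p below 0.05 stand beside 8.33% of all genes. Of 7 genes for cytochrome c and for subunits outside the naming rule, 3 were positive and 4 negative, with 0 at an unadjusted p below 0.05. Atpif1, which inhibits ATP hydrolysis by ATP synthase, was at 7.78, 7.88 and 7.73 on the wild-type and 7.85, 8.08 and 8.36 on the Alb/AEG-1 arrays, differing by 0.30 ± 0.13 log2 (adjusted p = 0.619) with a narrow overlap, and the mean of its probe sets differed by 0.09. Cox4i2, the lung form of subunit 4, was dim and differed by -0.17 ± 0.11 with overlapping groups. Of 33 assembly factors, 18 were positive, 15 negative and 1 had an unadjusted p below 0.05. This was Cox18, which inserts a complex IV core subunit into the membrane, at 7.89, 7.62 and 7.47 and at 8.09, 8.39 and 8.02. Its difference was 0.51 ± 0.14 with separated groups (limma, unadjusted p = 0.00812, adjusted p = 0.596). Uqcc1, an assembly factor of complex III, had the next smallest p and differed in the other direction, by -0.24 ± 0.11 with overlapping groups.

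Of 18 regulators of mitochondrial genes, 9 were positive and 9 negative. Ppara, a nuclear receptor for fatty acids, differed by -0.56 ± 0.16 (adjusted p = 0.596) and was the 1 regulator with an unadjusted p below 0.05. The coactivator gene Ppargc1a differed by -0.57 ± 0.33 with overlapping groups. Its difference was -1.31 within the low animal numbers and 0.23 within the high ones. Nrf1 itself, with a mean level of 5.85, differed by -0.11 ± 0.08 (limma, adjusted p = 0.709) and Gabpa by -0.16 ± 0.10 (limma, adjusted p = 0.661), both with separated groups. Of the 18 regulators 3 were separated downwards and 1 upwards, where 8.31% and 6.77% of all genes were. Yy1 (0.08 ± 0.09), Esrra, for ERR alpha (0.04 ± 0.10), and the dim Gabpb1 (0.14 ± 0.10) were positive with overlapping groups. Polrmt, the mitochondrial RNA polymerase, differed by 0.21 ± 0.11 on its brightest probe set and by 0.04 over the mean of its probe sets.

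Of 17 measured genes of the tricarboxylic acid cycle, 13 were negative, where 52.2% of all genes were. Their median was -0.12 within the low animal numbers and -0.009 within the high ones. Sucla2, a subunit of succinyl-CoA synthetase, was at 10.96, 10.97 and 10.98 on the wild-type and 10.78, 10.74 and 10.81 on the Alb/AEG-1 arrays. Its groups did not overlap, with a difference of -0.20 ± 0.07 (limma, unadjusted p = 0.0323, adjusted p = 0.611). Dld, the shared dihydrolipoamide dehydrogenase, differed by -0.16 ± 0.11. All 8 genes for other electron donors to ubiquinone were negative, with a median of -0.06. That median was -0.14 within the low animal numbers and -0.01 within the high ones. Dhodh, of pyrimidine synthesis, differed by -0.21 ± 0.09 on its brightest probe set (limma, unadjusted p = 0.0495, adjusted p = 0.618) and by -0.03 over the mean of its probe sets. Prodh, of proline breakdown, differed by -0.40 ± 0.32 and was positive (0.27) within the high ones animal numbers.

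Of 10 carriers, channels and uncoupling proteins 9 were negative, led by the dim Ckmt1 (-0.29 ± 0.14) and the outer membrane channel gene Vdac1 (-0.17 ± 0.10). Of 8 mitochondrial antioxidant genes 5 were negative, and Gpx4, which reduces lipid peroxides, differed by 0.17 ± 0.08. Glrx2 differed by 0.06 ± 0.09. Of 19 genes of import and inner membrane organization 9 were positive, among them Tomm22 (0.19 ± 0.09), while the chaperonin gene Hspd1 differed by -0.20 ± 0.11.

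Mitochondrial ribosomal protein genes, whose products translate the subunits encoded by mitochondrial DNA, leaned the other way. Of 59 measured, 46 were positive and 13 negative, with a median of 0.05 log2. Within the low animal numbers that median was -0.07 and within the high ones 0.13, so the lean was not shared by both ranges. Mrps34 was at 9.29, 9.05 and 9.24 and at 9.38, 9.36 and 9.54, a separated difference of 0.24 ± 0.10 (limma, unadjusted p = 0.0447, adjusted p = 0.616), and Mrps18c differed by 0.14 ± 0.07. The 13 listed subunits encoded by mitochondrial DNA were not analysed here.

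In whole tumours, fewer cells of a type and less RNA per cell cannot be told apart. The 8 hepatocyte markers were high on all arrays, with a mean level between 13.57 and 13.58 on the wild-type and between 13.46 and 13.56 on the Alb/AEG-1 arrays, 6 negative and 0 at an unadjusted p below 0.05. The 8 macrophage and Kupffer cell markers were all positive, with a mean level from 6.80 to 7.24 and from 7.15 to 7.65, and their median was -0.01 within the low animal numbers and 0.84 within the high ones. Among them C1qb differed by 0.76 ± 0.21. Of 6 T and NK cell markers 5 were negative, and Gzmb (-0.29) had an unadjusted p below 0.05. These markers were dim, with 5 of the 6 below a mean of 5 log2. Their mean level was from 4.44 to 4.64 on the wild-type and from 4.33 to 4.53 on the Alb/AEG-1 arrays. Of 4 adipocyte markers 2 were positive, 2 had a mean below 5 log2, and Fabp4 (0.43) had an unadjusted p below 0.05. The part of these cell types in the subunit differences was not tested. Mtdh was at 9.32, 9.03 and 9.16 on the wild-type and 9.57, 9.40 and 9.15 on the Alb/AEG-1 arrays (difference 0.20 ± 0.13, adjusted p = 0.677), and since the species of the transgene is not stated its probe sets do not check the genotype.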

How the data were processed

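The authors made the deposited log2 expression levels with RMA (background correction, quantile normalization and probe set summary), per the submitters' processing notes, which give no version. Total RNA (5 µg) had been made into biotin-labelled cRNA, per the labels' protocols. Array medians differed by at most 0.0289 log2, and pairs of arrays correlated with r between 0.987 and 0.993 across probe sets, which are not independent. Quantile normalization hides a shift that most genes share, and bright probe sets can have compressed differences.

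Of 22690 probe sets, 64 controls were left out. The platform annotation named the genes, with 20380 probe sets of 1 symbol, 691 of several and 1555 of none. Another 7 probe sets matched the naming rule but had several symbols and were left out, with Ndufa11, Ndufb4 and Ndufs6 measured only there. All 76 gene IDs were in the RefSeq table. Gene coordinates are left out because the build of the annotation is not stated.

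The test was limma's moderated one (version 3.58.1, under R 4.3.3; 2-sided, genotype the only term). P-values were adjusted by Benjamini-Hochberg across the 22626 probe sets and read at 0.05. The fit was tested on simulated data. Replicates were numbered in accession order, and titles give each array its own animal. Genes named in the text were, per complex, the 4 with the smallest p, the one with the largest p and the brightest, the tissue isoforms of complex IV, and the 2 with the smallest p of each further list. The rule was not followed for the cell type marker lists, which are given by counts; the 3 markers named there, and other genes, were named after their values were seen. The members and lists were chosen with earlier results of these data known. Alternatives were trend or robust moderation, array scaling, filters on dim or cross-binding probe sets, the mean of a gene's probe sets, weights per array, a term for the range of animal numbers and leaving out each array.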

Additional observations from a re-analysis of the deposited data

How the results depend on the processing

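With 3 arrays per group, 0 members passed an adjusted p of 0.05 in the main fit or in any alternative run. The count at an unadjusted p below 0.05 was 2 lower and 0 higher, 1 with cross-binding probe sets left out, 0 at a stricter 0.01, and from 0 to 2 when single arrays were left out. Positive members numbered from 19 to 36 on leaving out single arrays, from 22 to 29 in the other fits that hold all 76, and 21 of the 65 with a mean of at least 10. On leaving out arrays the median of complex III ran from -0.0361 to 0.0234, of complex IV from -0.123 to -0.0577 and of complex V from -0.0720 to -0.0219. Genes with an unadjusted p below 0.05 numbered 1032, or 486 of those left without dim probe sets, 55 with a mean of at least 10 (a filter chosen after seeing the data) and from 660 to 1491 without single arrays. Probe sets called over all numbered 1, but 0 with a term for the range of animal numbers or with a mean of at least 10, 2 with an intensity trend or the mean of probe sets per gene, and from 0 to 1 without single arrays. The cause of these shifts was not tested, beyond the fewer genes or arrays some settings hold. The sign of these named members turned. Cox7a2l was 0.0111 with a term for the range of animal numbers, 0.00355 with array weights, 0.00922 with the mean of probe sets and 0.0117 after median centring. Atp5g1 was -0.00780 with array weights, Ndufa2 0.00897 after median centring, and with the mean of probe sets Cox7a2 was 0.00930 and Uqcrb -0.0544. Cox7c, at -0.288 the most negative member, was 0.163 without cross-binding probe sets. Leaving out single arrays turned Atp5g1 (-0.129 to 0.116), Cox6a2 (-0.117 to 0.00544), Cox6b1 (-0.0970 to 0.0217), Cox7a1 (-0.277 to 0.184), Cox7a2 (-0.0510 to 0.0186), Cox7a2l (-0.0190 to 0.0345), Ndufa2 (-0.0681 to 0.0466), Sdhc (-0.0726 to 0.105), Uqcrb (-0.00434 to 0.0219), Uqcrc1 (-0.156 to 0.0588) and Uqcrh (-0.0800 to 0.0134). Without a change of sign, the mean of probe sets moved further named genes by over 1.5 times: Cox8a to 0.07, Ndufb2 to 0.09, Ckmt1 to -0.17, Tomm22 to 0.11, Mtdh to 0.08 and Vdac1 to -0.09. A term for the range of animal numbers moved Cox8b to -0.14, Polrmt to 0.13, Prodh to -0.15 and Mtdh to 0.11. No paired analysis was possible because the labels give no replicate numbers shared by the groups. The alternative for linear values was not run, since the values were already log2.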
